A study of Mus musculus with 7 samples.

Results

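The nuclear genes that encode the proteins of the mitochondrial ribosome were examined in the cerebral cortex of mice at postnatal day 7. The members were the rows of the expression table whose symbol begins with Mrpl or Mrps followed by a number, leaving out symbols with -ps, which mark pseudogenes. There were 78 such rows of 56941 in all. Of these, 49 were Mrpl rows, named for the large subunit, and 29 were Mrps rows, named for the small subunit. The samples were cortex from mice with the P213L variant of Hnrnph2 (3 samples) and wild-type (WT) cortex (4 samples). Hnrnph2 is an X-linked gene for an RNA-binding protein that acts in splicing. The labels give neither strain nor sex, do not describe how the allele was made, and do not say whether each sample came from 1 animal, so p-values refer to the spread among these libraries only.

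The mitochondrial ribosome translates the few messenger RNAs of the mitochondrial genome, which encode core subunits of the respiratory chain and of ATP synthase. Its ribosomal RNAs are made inside the organelle, but all of its proteins are encoded in the nucleus, made in the cytosol and imported. Some of these proteins descend from bacterial ribosomal proteins and others were added during the evolution of mitochondria. Neurons and myelinating glia depend on respiration, and inherited defects of several of these proteins cause mitochondrial disease in humans, often with brain involvement.

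Promoters of nuclear genes for mitochondrial proteins often hold sites for ETS-family factors, NRF1 and YY1, and a few are shown as a description. Whether such sites bear on the differences between libraries was not tested. RefSeq (GRCm38.p6) gave a promoter, from 250 bases before to 50 after the start, for 69 of the 78 members. On either strand, the ETS core CCGGAAG lay in 26 of these 69 (37.7%), against 17.955% of the genes tested that have a promoter entry. The NRF1 core GCATGCGC lay in 8 (11.6%, against 5.49%) and the YY1 core AAGATGGC in 12 (17.4%, against 4.68%). A match lay before the start in 18 members for the ETS core, 8 for NRF1 and 4 for YY1. In 8 members for the ETS core and 8 for YY1 it lay only after or across the start. At least 1 of these motifs was found in 38 members (55.1%), against 25.6% of the 11824 genes tested with an entry. The ETS core ends in the letters AAG with which the YY1 core begins, so a match to each can share them. A match is only a match of letters. The 250 bases before the RefSeq start are printed for 5 members, 5′ to 3′ on the strand of the gene, with matches in capitals. GENCODE vM21, used for the places given below, starts Mrps18c at 100798627 and Mrpl33 at 31596935. By that annotation part of the Mrps18c stretch and all of the Mrpl33 stretch lie inside the gene. Mrps36 (chr13:100744660-100744909, minus strand) and Mrpl20 (chr4:155802628-155802877, plus strand) are shown as the members whose P213L and WT values did not overlap, and neither holds a match. The others are, for each motif, the member with the largest excess in 1 of the WT libraries (replicate 3) among those with a match before the start. They are Mrps18c (chr5:100798509-100798758, plus strand) for the ETS core, Mrpl33 (chr5:31613701-31613950, plus strand) for the NRF1 core and Mrps12 (chr7:28741822-28742071, minus strand) for the YY1 core, each in the reverse complement. Mrpl33 and Mrps12 also hold an ETS match after or across the start, which is not printed.
Mrps36: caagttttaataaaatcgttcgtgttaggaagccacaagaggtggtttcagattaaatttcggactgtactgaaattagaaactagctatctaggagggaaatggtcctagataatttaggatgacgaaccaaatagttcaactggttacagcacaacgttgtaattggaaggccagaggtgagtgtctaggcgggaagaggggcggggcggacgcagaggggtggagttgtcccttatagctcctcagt
Mrpl20: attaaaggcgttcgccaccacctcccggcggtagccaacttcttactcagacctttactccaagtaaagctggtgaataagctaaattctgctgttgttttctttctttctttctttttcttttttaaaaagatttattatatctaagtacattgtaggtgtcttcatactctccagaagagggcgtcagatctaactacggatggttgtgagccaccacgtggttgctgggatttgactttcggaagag
Mrps18c: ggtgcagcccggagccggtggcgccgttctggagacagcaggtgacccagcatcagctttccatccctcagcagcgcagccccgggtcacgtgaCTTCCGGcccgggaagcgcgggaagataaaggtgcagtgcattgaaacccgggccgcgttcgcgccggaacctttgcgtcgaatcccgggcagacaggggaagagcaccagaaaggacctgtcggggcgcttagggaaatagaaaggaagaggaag
Mrpl33: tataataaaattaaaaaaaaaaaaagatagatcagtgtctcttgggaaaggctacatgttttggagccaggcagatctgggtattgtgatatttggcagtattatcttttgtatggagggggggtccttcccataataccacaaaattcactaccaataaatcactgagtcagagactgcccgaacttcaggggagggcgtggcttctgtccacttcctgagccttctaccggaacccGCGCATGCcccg
Mrps12: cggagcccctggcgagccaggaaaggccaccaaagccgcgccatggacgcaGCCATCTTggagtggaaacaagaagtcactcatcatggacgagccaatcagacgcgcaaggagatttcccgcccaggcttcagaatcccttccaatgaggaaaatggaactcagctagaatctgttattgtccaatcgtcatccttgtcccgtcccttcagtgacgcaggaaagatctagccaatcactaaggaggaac

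The libraries differed in ways that touch these genes. WT replicate 3 stood apart, with a correlation of 0.943 to 0.949 to the other libraries across the 17582 genes tested, where the other 6 libraries each had a best match of 0.990 to 0.992. The mean transcript length weighted by TPM (transcripts per 1000000, a unit corrected for gene length) was 3251 bases in that library, against 3975 to 4026 bases in the other 6. Its summed level of 6 excitatory neuron markers was 723 TPM, against 1122 to 1276 TPM in the other 6, and that of 5 erythroid markers 903 TPM, against 415 to 600.1 TPM. The 5 oligodendrocyte markers summed to 208, 207.5 and 225 TPM in P213L and to 281, 279, 328 and 307 TPM in WT, so they were lower in every P213L library and highest in WT replicate 3. The 4 endothelial markers were also highest in that library, at 362 TPM against 251.5 to 299 TPM in the other 6. Its sum of 4 inhibitory neuron markers was 252 TPM, against 314 to 361 TPM in the other 6. That of 5 astrocyte markers was 561 TPM, against 650.4 to 741 TPM. Its 4 meningeal fibroblast markers summed to 58.7 TPM, against 82.5 to 164 TPM, and its 4 skeletal muscle markers to 33.4 TPM, against 19.3 to 22.9 TPM. The 4 choroid plexus markers summed to 1236 TPM in WT replicate 2 and to no more than 5.64 TPM elsewhere. None of the 6 excitatory and 4 inhibitory neuron markers stayed below 1 TPM, whereas 3 of 4 markers of liver and 3 of 4 of skeletal muscle did in all 7 libraries. Depth estimated from the lowest values was 71.2 to 79.4 M counted units in P213L and 57.2 to 72.5 M in WT (M, 1000000), lowest in WT replicate 3. Hnrnph2 stood at 82.0 ± 5.39 TPM in P213L and 87.0 ± 5.66 TPM in WT (SD, n = 3 and 4; limma adjusted p = 0.831). The variant is a change in the protein, so the TPM of Hnrnph2 cannot test the genotype labels.

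All 78 members were expressed, and all passed the expression filter (mean TPM of 1 or more across the libraries). Their mean levels spanned 36.6-fold, from 5.70 TPM for Mrpl33 to 208.6 TPM for Mrpl41, with a median of 45.0 TPM. The median was 48.6 TPM for the Mrpl rows and 33.8 TPM for the Mrps rows. Each member rested on at least 304 estimated counted units in every library, the least for Mrps18c, while Mrpl33 had at least 677.5. TPM divides by gene length, so the order of levels is not one of counted units. By exon-union length the high members Mrpl41, Mrpl34 and Mrps21 have 888, 607 and 739 bases. The low members Mrpl33, Mrps30 and Mrps35 have 7326, 6666 and 8631 bases. The part of length in this order was not tested. The members lie on 17 chromosomes, most often on chromosome 11 (11 members).

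In the large subunit, the highest level was that of Mrpl41 (mm10, chromosome 2, 24974117 to 24975098, minus strand), a protein with no bacterial counterpart. It stood at 184, 178 and 189 TPM in P213L and at 215, 177, 327 and 189 TPM in WT. Next came Mrpl34, a short protein of the ribosomal RNA core, at 206, 180 and 185 TPM in P213L and 194, 158, 263 and 164 TPM in WT. In both genes WT replicate 3 was the highest library, and the P213L values lay within the range of the WT values.

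Mrpl12, the stalk protein that helps recruit translation factors to the ribosome, stood at 153, 141 and 153 TPM in P213L and 162, 142, 221 and 137 TPM in WT. Mrpl28 was the next in order, at 117, 110 and 117 TPM in P213L and 125, 110, 200.2 and 101 TPM in WT. Without WT replicate 3, the values of the groups were interleaved for both genes. Across libraries the SDs were 5.42 TPM in P213L and 68.7 TPM in WT for Mrpl41, and 14.0 TPM and 48.4 TPM for Mrpl34. Within libraries, Mrpl41 lay above Mrpl34 in every WT library and in P213L replicate 3, and below it in P213L replicates 1 and 2. The order of these neighbours was thus not the same in every library. The lowest members were Mrpl1, at the flexible stalk where the used transfer RNA leaves, and Mrpl33. Mrpl33 stood at 5.15, 5.34 and 5.14 TPM in P213L and 5.04, 5.53, 8.37 and 5.33 TPM in WT.

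In the small subunit, Mrps21 was highest, at 165, 152 and 157 TPM in P213L and 160.2, 141, 249.1 and 145 TPM in WT. Mrps24 stood at 115, 109 and 121 TPM in P213L and 129, 101, 180.4 and 95.9 TPM in WT. Mrps12, which lines the decoding centre, stood at 112, 101 and 114 TPM in P213L and 116, 91.0, 164 and 104 TPM in WT. Mrps23, a protein specific to mitochondria, followed at 86.3, 80.2 and 80.4 TPM in P213L and 86.2, 83.6, 115 and 81.1 TPM in WT. Each of these genes had its highest value in WT replicate 3, and for none did the groups separate. At the low end were Mrps35, at 8.16 to 9.12 TPM in P213L and 8.14 to 10.1 TPM in WT, and Mrps30, at 5.32 to 6.40 TPM in P213L and 5.67 to 9.32 TPM in WT. Mrps30 keeps a small-subunit name, but its protein sits in the large subunit.

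**Figure D1:**
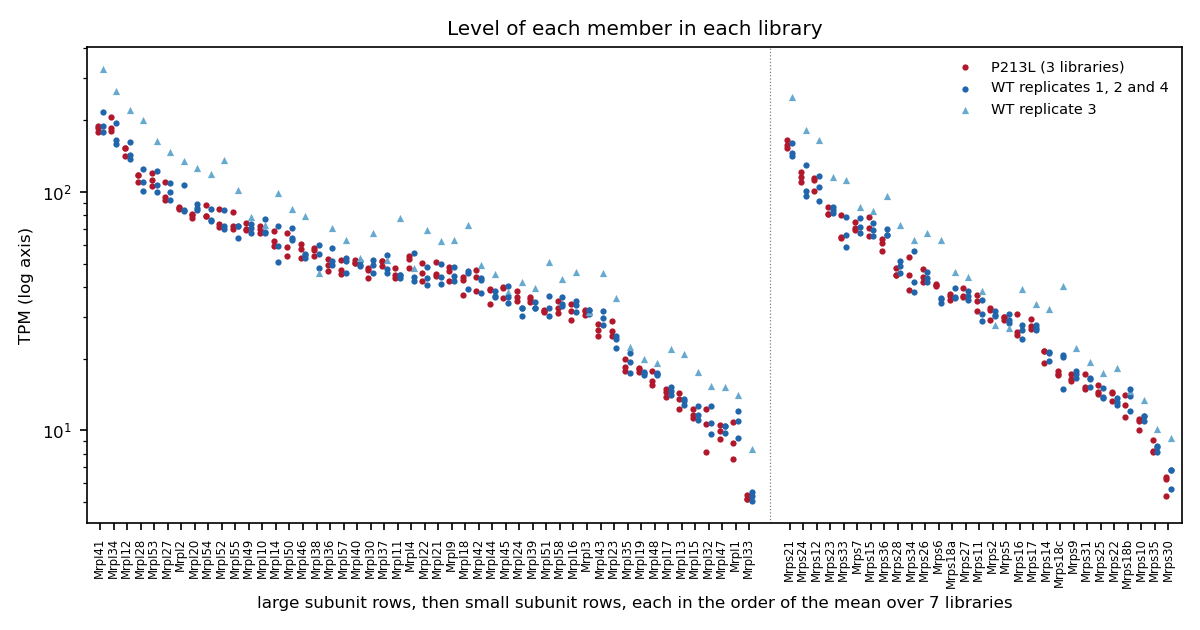
TPM of each of the 78 members (log axis) in the 3 P213L libraries (red circles, left of each position), in WT replicates 1, 2 and 4 (blue circles, right) and in WT replicate 3 (light triangles). Mean levels run from 208.6 TPM (Mrpl41) to 5.70 TPM (Mrpl33), and WT replicate 3 lies on top for 69 members.

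The first question was whether these genes differed between P213L and WT cortex. None did past the threshold. In bulk tissue, fewer cells of a type and less RNA per cell cannot be told apart. In limma, with Benjamini-Hochberg adjustment over all 17582 genes tested, 0 of the 78 members passed an adjusted p of 0.05 (lowest adjusted p = 0.827), where 0.00% of all genes passed. At an unadjusted p under 0.05 there were 0 members as well, against 1.38% of all genes lower (242) and 2.36% higher (415) in P213L. With the libraries rescaled by median-of-ratios factors these were 351 and 379 genes, still with 0 members. Under that scaling 75 of the 78 members were lower, where 51.5% of all genes were lower. On the TPM values without rescaling, most members also had the same sign. There 67 were lower and 11 higher in P213L, while 36.6% of all genes were lower. The median log2 fold change, P213L over WT, was -0.10 over the members and 0.07 over all genes tested. It was -0.10 for the 49 Mrpl rows, of which 41 were lower, and -0.09 for the 29 Mrps rows, of which 26 were lower.

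This lean moved with 1 library. WT replicate 3 had the highest value of all 7 libraries in 69 of the 78 members (88.5%), but in 21.6% of all genes tested, and it was the lowest library in 55.1% of all genes. Its level was 1.42-fold the median of the other 6 for the median member, with a range of 0.820-fold (Mrpl38) to 2.31-fold (Mrps18c). The members summed to 4067, 3831 and 3854 TPM in P213L and to 4110.2, 3712, 5540.1 and 3809.6 TPM in WT. As a share of the library this was 0.407, 0.383 and 0.385% in P213L and 0.411, 0.371, 0.554 and 0.381% in WT, so WT replicate 3 was high and the other 6 libraries overlapped.

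**Figure D2:**
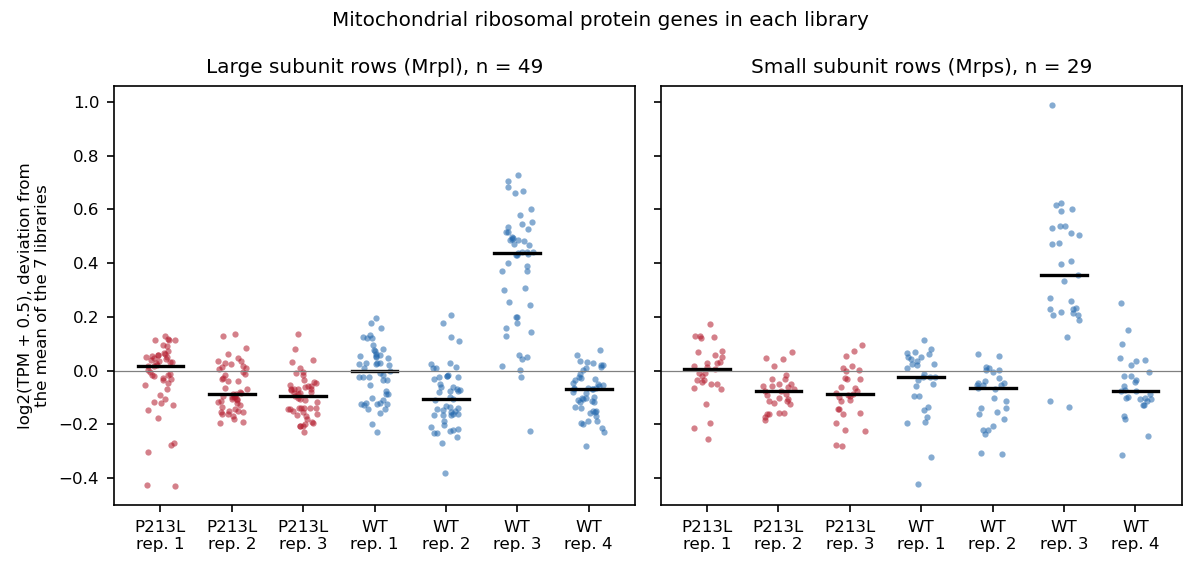
Deviation of log2(TPM + 0.5) from the mean of the 7 libraries, 1 point per member, for P213L (red) and WT (blue) libraries, with the median of each library as a bar. The median lies at 0.44 (Mrpl rows) and 0.35 (Mrps rows) in WT replicate 3 and between -0.11 and 0.02 in the other 6 libraries.

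Without WT replicate 3, 34 members were lower and 44 higher in P213L, where 50.4% of all genes were lower and 49.6% higher, with a median log2 fold change of 0.02 for both the Mrpl and the Mrps rows and -0.002 over all genes. The fold changes ran from -0.24 (Mrpl1) to 0.20 (Mrps6), 66 of the 78 lay within 0.1 of 0 on the log2 scale, and their standard errors were 0.05 to 0.16 (median 0.08). Again 0 members passed adjustment in limma (lowest adjusted p = 0.491). At an unadjusted p under 0.05, 1 member was lower (Mrps36) and 2 were higher (Mrpl24 and Mrps6), where 3.99% of all genes were lower and 4.70% higher. The summed level was 3917 ± 130.02 TPM in P213L (SD, n = 3) and 3877 ± 207 TPM in the remaining WT libraries (SD, n = 3). With all 4 WT libraries the WT value was 4293 ± 848 TPM.

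A fit that weights each library by its agreement with its group gave WT replicate 3 a weight of 0.0431, against 0.441 to 6.90 for the others. The largest weights were 6.90 for P213L replicate 3 and 5.24 for WT replicate 4. The others, WT replicate 3 aside, had 0.441 to 1.25, so each group mean rested mostly on 1 library. In this fit 11 members passed in limma, 7 lower in P213L (Mrpl1, Mrpl16, Mrpl20, Mrpl30, Mrps18b, Mrps18c and Mrps30) and 4 higher (Mrpl4, Mrps11, Mrps24 and Mrps6). The shares over all genes were 9.30% lower and 13.3% higher (22.6% in all), so the members' count was below the background. None of these members passed with equal weights.

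**Figure D3:**
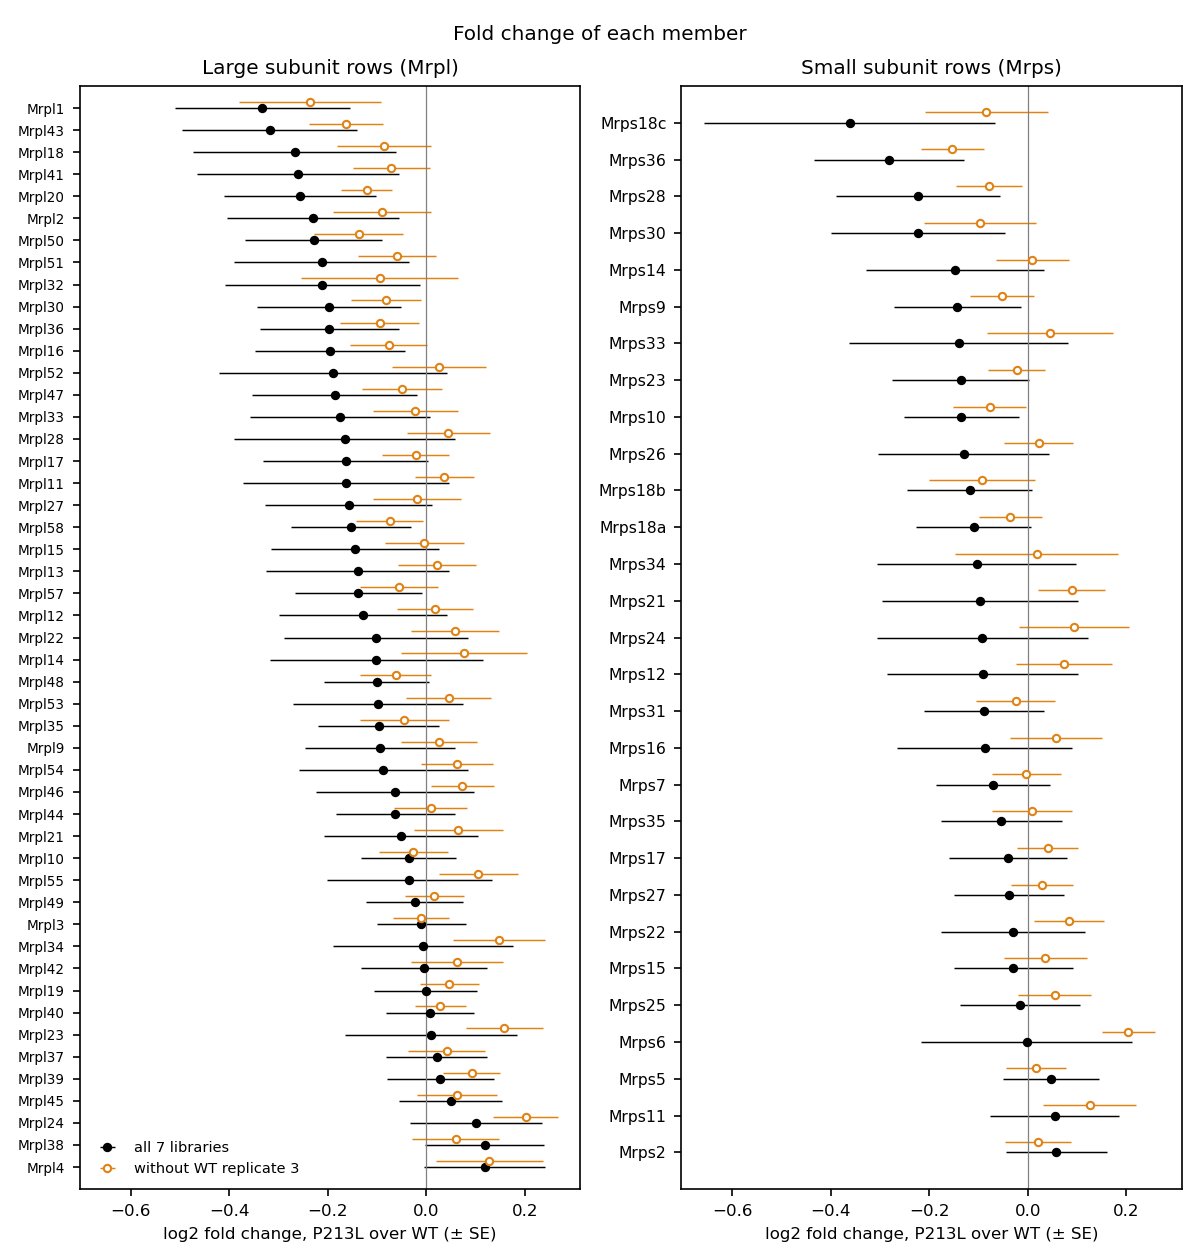
Log2 fold change, P213L over WT, with its SE for each member, with all 7 libraries (black) and without WT replicate 3 (open orange). With all libraries 67 of 78 points lie below 0, and without WT replicate 3 the points lie around 0 with 34 below it.

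Both subunits moved together across libraries. The Mrpl rows summed to 2740, 2590.4 and 2597 TPM in P213L and to 2805, 2513, 3736 and 2559 TPM in WT. The Mrps rows summed to 1327, 1240.2 and 1257 TPM in P213L and to 1305, 1199, 1804 and 1251 TPM in WT. The ratio of the large to the small subunit sum was therefore steady, at 2.06, 2.09 and 2.07 in P213L and 2.15, 2.10, 2.07 and 2.05 in WT, and WT replicate 3 lay inside the range of the others. The proteins with bacterial counterparts (46 members) and those specific to mitochondria (32 members) had the same median log2 fold change of -0.10. Without WT replicate 3 both medians were 0.02.

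The members with the smallest p among those lower in P213L were Mrpl1, Mrps36, Mrpl43, Mrpl20, Mrpl50, Mrpl36, Mrpl30 and Mrps28. Mrps36 (mm10, chromosome 13, 100735955 to 100744659, minus strand) and Mrpl20 (chromosome 4, 155802878 to 155809975, plus strand) were the only 2 members whose groups did not overlap, both lower, against 2.75% of all genes lower and 5.94% higher. Their promoters are printed above. Mrps36 was named as a ribosomal protein but has since been found to link the subunits of the oxoglutarate dehydrogenase complex of the citric acid cycle. It stood at 56.6, 63.5 and 61.2 TPM in P213L and 70.04, 65.7, 96.0 and 66.0 TPM in WT, a log2 difference of -0.28 ± 0.15 (SE; limma adjusted p = 0.827). Every P213L value lay below every WT value, with and without WT replicate 3, where the difference came to -0.15 ± 0.06 (SE; limma adjusted p = 0.562). Rows of Mrps36 pseudogenes held at most 2.69 TPM, and reads could be split between such copies.

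Mrpl20, a protein that binds the ribosomal RNA early in assembly of the large subunit in bacteria, stood at 77.5, 80.3 and 79.6 TPM in P213L and 85.5, 83.9, 126 and 89.0 TPM in WT. The groups did not overlap here either, and the log2 difference came to -0.26 ± 0.15 with all libraries and -0.12 ± 0.05 without WT replicate 3 (SE; limma adjusted p = 0.827 and 0.578). Mrpl1 stood at 7.59, 10.8 and 8.90 TPM in P213L and 9.33, 12.01, 14.1 and 10.9 TPM in WT, so its groups overlapped (log2 fold change -0.33 ± 0.18, SE). Mrpl43 stood at 24.8, 27.9 and 26.4 TPM in P213L and 31.5, 29.6, 45.7 and 27.7 TPM in WT. Its largest P213L value exceeded the smallest WT value by a small margin, and 33.4% of its exon bases are shared with Twnk on the opposite strand. For Mrpl50, Mrpl36, Mrpl30 and Mrps28 the log2 fold changes were -0.23, -0.20, -0.20 and -0.22, and between -0.14 and -0.08 without WT replicate 3.

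The members with the smallest p among those higher in P213L were Mrpl38, Mrpl4, Mrpl24, Mrps2 and Mrps5. For Mrpl38, Mrpl4, Mrps2 and Mrps5, WT replicate 3 was not the high library. Mrpl38 stood at 58.1, 53.8 and 56.8 TPM in P213L and 59.9, 47.7, 45.8 and 54.9 TPM in WT. Mrpl4 stood at 52.1, 48.0 and 53.8 TPM in P213L and 55.3, 42.2, 48.1 and 44.0 TPM in WT. Their log2 fold changes were both 0.12 ± 0.12 (SE; limma adjusted p = 0.827), and the groups overlapped. Mrps2 and Mrps5, proteins of the small subunit with bacterial counterparts, had log2 fold changes of 0.06 ± 0.10 and 0.05 ± 0.10 (SE).

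Mrpl24 stood at 36.2, 38.3 and 34.9 TPM in P213L and 32.4, 30.04, 41.9 and 32.5 TPM in WT. Apart from WT replicate 3 every P213L value lay above every WT value, with a log2 fold change of 0.20 ± 0.07 without that library (SE; limma adjusted p = 0.518), and 0.10 ± 0.13 with it. Mrps6 and Mrpl39, chosen after their values were seen, likewise had no overlap once WT replicate 3 was left out, where 7.33% of all genes were higher without overlap and 6.89% lower. Mrps6 stood at 41.1, 40.3 and 40.7 TPM in P213L and 35.6, 35.9, 63.0 and 34.3 TPM in WT. On the log2 scale it differed by 0.20 ± 0.05 without WT replicate 3 and by -0.003 ± 0.21 with it (SE; limma adjusted p = 0.491 and 0.997). The exons of Mrps6 overlap those of Gm49711 (19.9% of its exon bases) and of the transporter gene Slc5a3 (10.4%) on the same strand, so reads of these genes may not be fully separable. Mrpl24 shares 26.3% with Rrnad1 on the opposite strand.

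The stalk and the exit tunnel of the large subunit gave examples of members that followed WT replicate 3 and members that did not. Mrpl11, at the base of the stalk, stood at 48.1, 44.9 and 43.6 TPM in P213L and 44.6, 43.6, 77.5 and 44.8 TPM in WT, so that 6 libraries lay close together and WT replicate 3 far above. Mrpl10, which carries the Mrpl12 stalk, stood at 69.5, 71.5 and 66.8 TPM in P213L and 77.0, 67.9, 72.4 and 67.1 TPM in WT. Its WT replicate 3 value was 1.05-fold the median of the other 6, against 1.73-fold for Mrpl11 and 1.497-fold for Mrpl12. Mrpl45, which lies at the exit of the tunnel near the inner membrane, had a fold of 1.01 and Mrpl3, a protein of the ribosomal RNA core, one of 0.991. Mrpl3 stood at 31.8, 31.7 and 30.4 TPM in P213L and 31.996, 30.7, 31.5 and 31.9 TPM in WT, so all 7 libraries lay close together. Mrpl58, which releases stalled peptides, had a log2 fold change of -0.15 ± 0.12 and Mrpl44, with a ribonuclease-like fold, -0.06 ± 0.12 (SE).

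The 3 paralogs Mrps18a, Mrps18b and Mrps18c are related to 1 bacterial protein but take different places, Mrps18a in the large subunit and the others in the small one. Mrps18c takes the place of the bacterial protein and was counted as its counterpart, while Mrps18a and Mrps18b sit at sites of their own and were counted among the mitochondria-specific proteins. Mrps18a stood at 36.6, 35.2 and 37.1 TPM in P213L and 39.6, 36.1, 45.9 and 36.02 TPM in WT. Mrps18b stood at 14.1, 12.8 and 11.4 TPM in P213L and 12.1, 14.0, 14.6 and 14.9 TPM in WT, with WT replicate 4 the highest. Mrps18c (mm10, chromosome 5, 100798627 to 100804471, plus strand) stood at 17.3, 17.7 and 17.1 TPM in P213L and 14.9, 20.3, 40.4 and 20.7 TPM in WT, and its WT replicate 3 value was the furthest from the other libraries of all members. Their log2 fold changes were -0.11 ± 0.12, -0.12 ± 0.13 and -0.36 ± 0.30, and -0.04 ± 0.06, -0.09 ± 0.11 and -0.08 ± 0.12 without WT replicate 3 (SE; limma adjusted p = 0.827 for all 3 with every library). The paralogs share sequence, and 23.2% of the exon bases of Mrps18c are shared with a gene model on the same strand, which leaves its value less certain.

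Small-subunit members whose human counterparts are mutated in mitochondrial disease did not differ past the threshold. Mrps16 stood at 30.6, 25.1 and 25.9 TPM in P213L and 26.3, 24.3, 39.1 and 27.7 TPM in WT, with a log2 fold change of -0.09 ± 0.18 (SE). Mrps22 had a log2 fold change of -0.03 ± 0.15, Mrps7 of -0.07 ± 0.12 and Mrps34 of -0.10 ± 0.20 (SE; limma adjusted p = 0.950, 0.857 and 0.876). For Mrps34, 63.4% of the exon bases overlap Mapk8ip3 on the opposite strand and 37.0% overlap Nme3 on the same strand. In all, the exons of 33 members overlap those of another gene, 8 of them on the same strand, and how the counting treated strand is not stated in the labels.

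The excess in WT replicate 3 was set against gene length, since that library had shorter transcripts. The members have a median exon-union length of 2394 bases, against 3849 bases for all genes tested. Their log2 difference between WT replicate 3 and the mean of the other 6 libraries had a median of 0.50, and it was above 0 for 74 members (94.9%), against a median of -0.31 over 16591 genes with a length, of which 31.8% were above 0. Across the 78 members it was lower in longer genes (Pearson r = -0.37, Spearman rho = -0.40, a description across genes of 1 library that are no independent replicates). The 20 members under 1500 bases had a median of 0.62, where all genes of that class had 0.08. The 27 members of 1500 to under 3000 bases had 0.28 against 0.04, and the 31 members of 3000 bases or more had 0.41 against -0.45. In each class the members thus lay above the genes of similar length. With a trend on length and GC content taken out of every library, the median log2 fold change of the members was -0.15 with all libraries and 0.009 without WT replicate 3. In that last fit 35 members were lower, where 50.6% of all genes were lower and 49.4% higher. At an unadjusted p under 0.05, 5 members were lower and 2 higher, against 7.83% and 6.83% of all genes, and 5 lower and 3 higher did not overlap between groups, against 11% and 9.81%. Several marker sums of WT replicate 3, given above, lay outside the range of the other 6 libraries. They were lower for neurons, astrocytes and meningeal fibroblasts and higher for erythroid, endothelial and oligodendrocyte markers. The skeletal muscle sum was higher too, but 3 of its 4 markers stayed below 1 TPM in all 7 libraries, so it rests mostly on 1 gene. The 5 microglia markers (151 TPM, against 145 to 177) and the 4 oligodendrocyte precursor markers (379 TPM, against 376 to 437) lay inside that range. The oligodendrocyte sums moved with the groups too. The part of these marker sums in the values of the members was not tested.

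**Figure D4:**
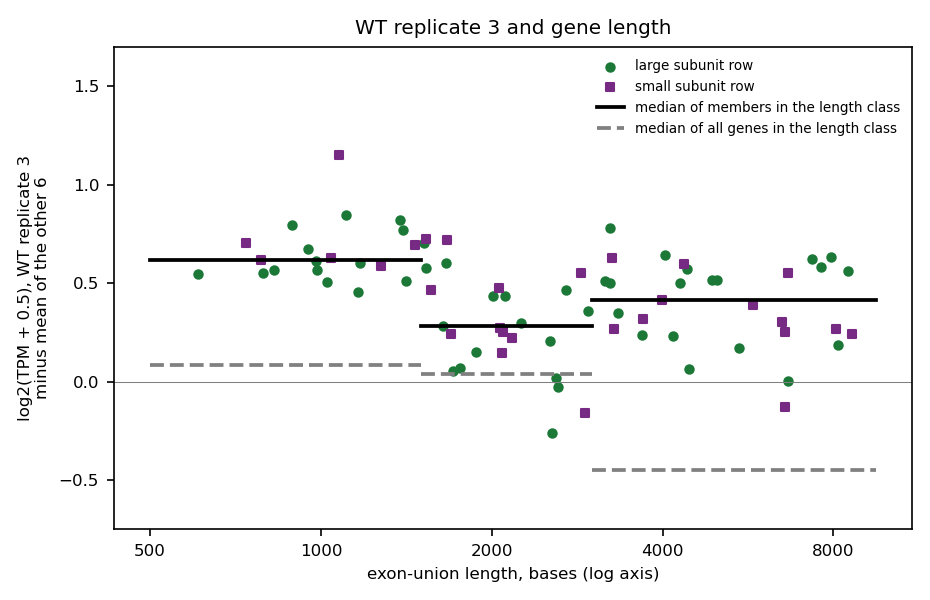
Log2(TPM + 0.5) in WT replicate 3 less the mean of the other 6 libraries (y) against exon-union length in bases (x, log axis) for the 49 Mrpl (circles) and 29 Mrps rows (squares), with medians by length class for the members (solid) and all genes (dashed). The member medians of 0.62, 0.28 and 0.41 lie above those of all genes (0.08, 0.04 and -0.45) in the 3 classes.

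Other proteins of the mitochondrial ribosome carry names outside the Mrpl and Mrps series. Dap3, a small-subunit protein that binds GTP, stood at 47.1, 44.1 and 44.8 TPM in P213L and 45.9, 43.0, 58.4 and 43.8 TPM in WT. Chchd1, another small-subunit protein, stood at 123, 113 and 104 TPM in P213L and 111, 107, 195 and 129 TPM in WT. Aurkaip1, of the small subunit, had a log2 fold change of -0.12 ± 0.15, Ptcd3, which has RNA-binding repeats, of -0.05 ± 0.11 and Gadd45gip1, of the large subunit, of 0.06 ± 0.14 (SE). Of these 5 genes, 4 were lower, 0 passed in limma (lowest adjusted p = 0.827), and WT replicate 3 was the highest library for all but Ptcd3. Without it their median log2 fold change was 0.00042.

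Genes that act with the mitochondrial ribosome were counted in the same fit, and their difference from the members was not tested. Of 26 assembly and ribosomal RNA modification factors, 12 were lower and 14 higher, where 36.6% of all genes were lower. Their median log2 fold change was 0.03, and 0 passed. The split turned with the scaling, since 18 of the 26 were lower with median-of-ratios factors (median -0.06), where 51.5% of all genes were lower. The same number was lower with the length and GC trend removed (median -0.05). With that trend removed, 8 of 14 translation factors and 12 of 20 synthetases were lower as well, with medians of -0.04 each, where 53.8% of all genes were lower. Mtg2, a GTPase of large-subunit assembly, stood at 11.5 ± 0.537 TPM in P213L and 9.24 ± 1.46 TPM in WT, and Mettl15, a ribosomal RNA methyltransferase, at 5.70 ± 0.547 and 4.65 ± 0.385 TPM (SD, n = 3 P213L and 4 WT). Of 14 translation factors tested, 5 were lower and 9 higher (median 0.07), where 63.4% of all genes were higher (median 0.07). Without WT replicate 3, where 50.4% of all genes were lower, 7 of these factors were lower and 7 higher (median 0.01). Among them the release factor Mtrf1l stood at 10.01, 9.29 and 9.26 TPM in P213L and 8.46, 7.90, 7.23 and 7.83 TPM in WT, and Mrrf, which recycles ribosomes, at 12.9, 12.6 and 12.6 TPM in P213L and 11.97, 11.3, 11.3 and 11.5 TPM in WT. These 2 genes had the smallest p of their list, and neither pair of groups overlapped. Of the 14 factors, 2 were higher without overlap and 0 lower, against 5.94% and 2.75% of all genes. The log2 fold changes of Mtrf1l and Mrrf, 0.26 ± 0.11 and 0.14 ± 0.10, did not pass (SE; limma adjusted p = 0.827 for both).

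Of 20 mitochondrial aminoacyl-tRNA synthetases and related enzymes, which load transfer RNAs, 9 were lower and 11 higher (median 0.07). Of all genes 63.4% were higher (median 0.07). Without WT replicate 3, 13 of the 20 were lower and 7 higher (median -0.02), where 50.4% of all genes were lower. Lars2, the leucine enzyme, stood at 129, 95.04 and 110 TPM in P213L and 85.7, 40.2, 35.1 and 61.1 TPM in WT, without overlap (log2 fold change 1.07 ± 0.30, SE; limma adjusted p = 0.827). The ribosomal RNA row Rn18s-rs5 was likewise higher in each P213L library, at 4.12, 2.56 and 3.47% of TPM in P213L and 1.62, 1.59, 1.31 and 2.41% in WT, and its part in the Lars2 value was not tested. Cars2, the cysteine enzyme, stood at 9.36 ± 0.392 TPM in P213L and 7.42 ± 1.25 TPM in WT (SD, n = 3 and 4). Lars2 and Cars2 had the smallest p of their list. Of the 20 enzymes, 1 was higher and 1 lower without overlap, against 5.94% and 2.75% of all genes. Of 12 genes for transcription and upkeep of the mitochondrial genome, 6 were lower and 6 higher (median -0.007). Twnk, the mitochondrial helicase, stood at 17.8, 16.8 and 16.4 TPM in P213L and 15.3, 13.9, 13.3 and 14.4 TPM in WT, without overlap, and shares exon bases with Mrpl43. Of the 12 genes, 1 was higher and 1 lower without overlap, against the same shares of all genes. Polrmt, the mitochondrial RNA polymerase, had a log2 fold change of 0.37 ± 0.18 (SE; limma adjusted p = 0.827).

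Of 10 nuclear regulators of mitochondrial genes, 3 were lower and 7 higher, where 63.4% of all genes were higher. Their median log2 fold change was 0.20 with all libraries and 0.009 without WT replicate 3. Pprc1, a coactivator, stood at 23.3, 23.2 and 22.6 TPM in P213L and 22.9, 19.7, 10.03 and 18.4 TPM in WT, so that WT replicate 3 was low where the ribosomal proteins were high. The transcription factor Myc stood at 37.5 ± 3.43 TPM in P213L and 32.4 ± 3.12 TPM in WT (SD, n = 3 and 4), and 0 of the 10 passed.

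The members were set beside the lists most like them. With all libraries, 72 of 77 cytosolic ribosomal protein genes and 76 of 80 nuclear respiratory chain genes were lower, with median log2 fold changes of -0.15 and -0.24, against -0.10 for the members. Without WT replicate 3, the medians were 0.02 for the cytosolic ribosomal proteins and -0.07 for the respiratory chain (68 of 80 lower), against 0.02 for the members. Ndufb9, a subunit of respiratory complex I, stood at 109, 108 and 106 TPM in P213L and 147, 132, 236 and 128 TPM in WT. Ndufb1 of the same complex had a log2 fold change of -0.50 ± 0.23 (SE), and the cytosolic ribosomal genes Rps29 and Rps28 had -0.48 ± 0.19 and -0.36 ± 0.21 (SE). None of these genes passed adjustment in limma (adjusted p = 0.827 for each).

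Of the 37 rows encoded in the mitochondrial genome, 21 passed the expression filter. Their median log2 fold change was -0.67 (20 lower), and -0.45 without WT replicate 3 (21 lower). The 13 protein-coding rows, whose transcripts the mitochondrial ribosome translates, had medians of -0.42 and -0.40. The 2 ribosomal RNA rows had -0.61 and -0.39, and the 6 transfer RNA rows -0.89 and -1.04. Since the libraries were poly(A)-selected, these 2 kinds of row may not follow the levels of those RNAs. The mt-Nd1 row, for a subunit of complex I, stood at 6352, 11887 and 9689 TPM in P213L and 9543, 14969, 15568 and 13425 TPM in WT, and mt-Tp, a transfer RNA, had -0.86 ± 0.35 (SE; limma adjusted p = 0.827 for both). All mitochondrial rows together held 4.17, 6.89 and 5.68% of TPM in P213L and 5.58, 8.51, 7.56 and 7.49% in WT. Leaving out WT replicate 3, the same contrast thus gave a median near 0 for the ribosomal proteins and a lower one for each kind of mitochondrially encoded row. The difference between these lists was not tested.

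**Figure D5:**
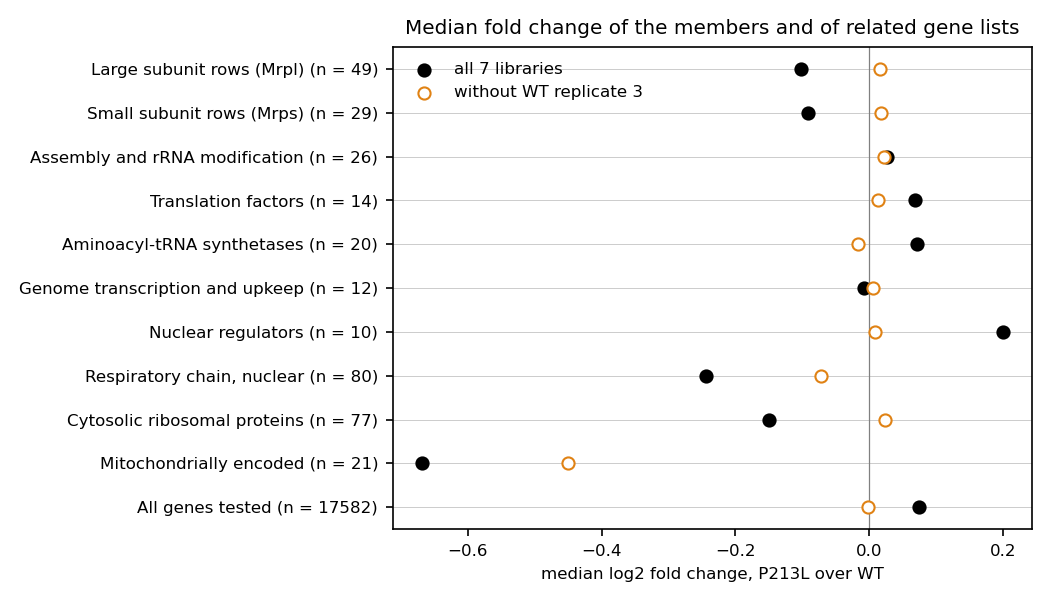
Median log2 fold change, P213L over WT, of the Mrpl and Mrps rows, of related gene lists and of all genes tested, with all 7 libraries (black) and without WT replicate 3 (open orange). The Mrpl and Mrps medians lie at -0.10 and -0.09 with all libraries and both at 0.02 without WT replicate 3, while the mitochondrially encoded rows lie at -0.67 and -0.45.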

How the data were processed

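Per the labels' protocols, TRIzol was used on fresh cortex and libraries were stranded and poly(A)-selected. The submitters' processing notes name HISAT2, HTSeq and mm10. Versions, annotation and gene lengths were not given in those notes. The authors deposited TPM values per gene, per the file headers, and each column sums to 1000000. TPM fixes the total of a library, so a shift in other genes moves every value.

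Columns were matched to samples by title, and columns of other samples numbered 0. The test was limma 3.58.1 in R 4.3.3 on log2(TPM + 0.5) with a mean-variance trend, two-sided, adjusted by Benjamini-Hochberg over the 17582 genes whose mean TPM was 1 or more. On this scale the fold changes of weakly expressed genes are too small. The fit was also run on simulated data with independent genes and the same spread in every library. That run does not bear on a library that stands apart, such as WT replicate 3. Counts of lower and higher members and list medians have no test of their own.

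Lengths, GC content (longest transcript), places and exon overlaps came from GENCODE vM21 (mm10), which had a unique symbol for 85.9% of rows and for all members. TPM keeps no read total. TPM times length, divided by the most frequent low value of the library, gave the estimated counted units, and 95.1 to 96.0% of values up to 10 units lay no more than 0.05 from a whole number or from one plus 0.5. No count test was run on such estimates.

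The members and gene lists were chosen with earlier results of these data known. The genes named are in each subunit the 4 highest and 2 lowest by mean TPM, the 8 lower and 5 higher members of smallest p, the Mrps18 paralogs, a set of known role, all 5 ribosomal proteins with other names, and the 2 of smallest p per list. Mrps6, Mrpl39 and Rn18s-rs5 were chosen after their values were seen, as was the fit without WT replicate 3 under median-of-ratios scaling. Bacterial or mitochondrial origin and place of each protein are background knowledge. A protein identity comparison was planned and not made. Alternatives were other pseudocounts, filters, scalings, fit options, a length and GC correction, a replicate block and samples left out. Python 3.11.15, pandas 2.3.3 and matplotlib 3.10.9 were used.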

Additional observations from a re-analysis of the deposited data

Results flagged for a closer look

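Single WT libraries lying apart were looked for in 40 measures, the TPM of the 37 members named by rule and the subunit sums and their ratio. Chance flags about 1 in 20 such groups. These measures are not independent, since most members were highest in WT replicate 3 and the sums are made of members. The number flagged was therefore not compared with that rate. There were 6 flags, all of them high values in WT replicate 3. They were Mrpl11 at 77.5 TPM, Mrpl20 at 125.6 TPM, Mrpl33 at 8.37 TPM, Mrps22 at 18.3 TPM, Mrps23 at 114.6 TPM and Mrps36 at 96.0 TPM. The ratio of the large to the small subunit sum did not stand apart in that library.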

How the results depend on the processing

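Under other pseudocounts, filters, scalings, an unmodelled mean-variance trend or robust fitting, 0 members passed adjustment and the median log2 fold change stayed between -0.19 and -0.10. Leaving out 1 library in turn gave 34 to 71 members below 0. At an unadjusted p under 0.05, 0 to 1 were lower and 0 to 2 higher, against 0.609 to 3.99% and 0.904 to 6.69% of all genes. Without overlap, 2 to 9 were lower and 0 to 3 higher, against 3.88 to 6.89% and 7.33 to 18.5% of all genes. The values 34, 2 and 3 higher came without WT replicate 3, and 9 (11.5% of the members, against 4.70% of all genes) without P213L replicate 1. Without WT replicate 3 and with the length and GC trend removed, 35 members were below 0, 5 were lower and 2 higher at an unadjusted p under 0.05, and 5 lower and 3 higher did not overlap. With median-of-ratios scaling in place of that trend removal (chosen after seeing the data), 34 members were below 0. At an unadjusted p under 0.05, 1 was lower and 2 were higher, against 4.12% and 4.55% of all genes. With that scaling 3 lower and 3 higher did not overlap, against 7.08% and 6.88% of all genes. Without WT replicates 2 and 3, 1 was higher at an unadjusted p under 0.05, against 2.79% of all genes, and 5 lower and 5 higher (6.41% each) did not overlap, against 9.70% and 10.3%. With mitochondrial rows removed, or with the length and GC trend removed, 5 lower (6.41%) did not overlap, against 3.28% and 6.64%. Sample weights gave WT replicate 3 a weight of 0.0431, P213L replicate 3 one of 6.90 and WT replicate 4 one of 5.24. There 3981 of all genes (22.6%) passed, with 11 members (7 lower, 4 higher), 37 below 0, and 12 lower (15.4%) and 9 higher (11.5%) at an unadjusted p under 0.05, against 18.1% and 21.6% of all genes. Of 814 named values, 742 kept their sign, and 16 changed it with a size over 1 SE in either fit, all without WT replicate 3 or with sample weights. With sample weights these were Mrpl12 0.11, Mrpl28 0.16, Mrpl34 0.18, Mrps12 0.12, Mrps21 0.11 and Mrps24 0.26. Leaving out 1 library gave Mrpl34 -0.10 to 0.15, Mrps21 -0.18 to 0.089 and Mrps22 -0.083 to 0.084. Without WT replicate 3 and the length and GC trend they were 0.071, 0.071 and 0.084, and with median-of-ratios scaling 0.15, 0.087 and 0.082. Mrps22 was 0.11 without WT replicates 2 and 3. The cause of these changes was not tested. With the replicate number as a block the median was -0.15 and 71 members were below 0, the same values as without WT replicate 4, which has no partner and carries no weight there. Same-numbered samples did not deviate together in every pair (correlations 0.13, 0.17 and -0.10), so the numbers are not taken to pair the samples. Median-of-ratios scaling moved the median of all genes from 0.07 to -0.008. Counting by place in the ribosome, the medians were -0.11 and -0.09. The pseudogene alternative left out no further member.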
